A study of Mus musculus with 9 samples.

Results

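Messenger RNA levels of the genes for collagens, laminins, nidogens and perlecan were followed in hearts of wild-type C57BL/6 mice of 8 to 12 weeks. Members were the protein-coding genes with a name of these families and a mean level of at least 0.2 FPKM over the 9 libraries. FPKM is a level per length of transcript (fragments per kilobase) and relative to the total of its library. The rule kept 37 of 57 genes with such names, among 29237 genes in the table. They comprised 8 chains of fibrillar collagens, 17 chains of basement membranes and 12 chains of other collagens. The 17 basement membrane genes were 5 type IV collagen chains, 9 laminin chains, both nidogens and perlecan. Members were selected on their mean level, so that their order by level is a description. Just inside the limit lay Col20a1 at 0.207 FPKM, Col28a1 at 0.222 FPKM and Lama3 at 0.232 FPKM. Just outside it lay Col13a1 at 0.177 FPKM and Col4a6 at 0.14 FPKM.

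The 3 groups held 3 libraries each and carry the labels TPTN, DOX and control. All mice were wild type and of 1 strain and age range. The DOX group is the doxorubicin model group and the control group the normal group, per the design text, and doxorubicin is a cancer drug of the anthracycline class with known toxicity to heart muscle. The TPTN group is given as a treated group, in a series whose title concerns doxorubicin-induced dilated cardiomyopathy. The labels do not spell out TPTN, and give no dose and no day. Whether the TPTN mice were also given doxorubicin is not said. The labels number the libraries of a group but do not call them separate animals, so each p-value reflects the spread among these libraries alone, which may be technical. Hearts were measured in bulk, and fewer cells of a type cannot be told apart from less RNA per cell.

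Collagens are trimers of chains wound into a triple helix. Fibrillar collagens of types I, III and V form the banded fibres of the interstitium between heart muscle cells, and type I and type III are known to increase in cardiac fibrosis. Basement membranes are thin sheets around each heart muscle cell and beneath the endothelium of each capillary, built from a laminin network bound to cell receptors, a type IV collagen network, and nidogen and perlecan as linkers. Fibroblasts are known as the main source of fibrillar collagens in the heart, while endothelial cells, pericytes and heart muscle cells also make basement membrane chains.

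The depth of the libraries is unknown, since the deposited values hold no counts. Mitochondrial genes took 48.1 to 48.7% of all FPKM in TPTN libraries, 44.7 to 46.2% in DOX libraries and 49.8 to 50.9% in control libraries. A further 18.0 to 19.7% lay in 7 pseudogenes of chromosome 1 with a mean of at least 1000 FPKM, taken as copies of mitochondrial genes. Because FPKM is relative to the library total, the split of calls over all genes moved with the scaling. In DOX against control, 84.8% of called genes were higher as deposited, and 63.6, 53.1 and 22.6% with median-ratio scaling, with quantile normalization and with scaling without mitochondrial genes and these copies. In TPTN against DOX the same shares were 24.3, 34.7, 51.5 and 80.8%. Leaving out mitochondrial genes and copies moved the median log2 change of all genes to -0.07, against 0.04 as deposited, in DOX against control, and to 0.09, against -0.01, in TPTN against DOX. Replicate 1 of the DOX group stood apart by atrial genes. Myl7, the light chain of atrial myosin, had 539 FPKM there and at most 0.889 FPKM in the other libraries. Replicate 1 of the TPTN group and replicate 3 of the control group held the most small RNA genes, with summed values of 930 and 644 FPKM, against 126 to 435 FPKM in the others. Myh6, the main heart muscle myosin of adult mice, lay between 2018 and 2688 FPKM in the 9 libraries.

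**Figure D1:**
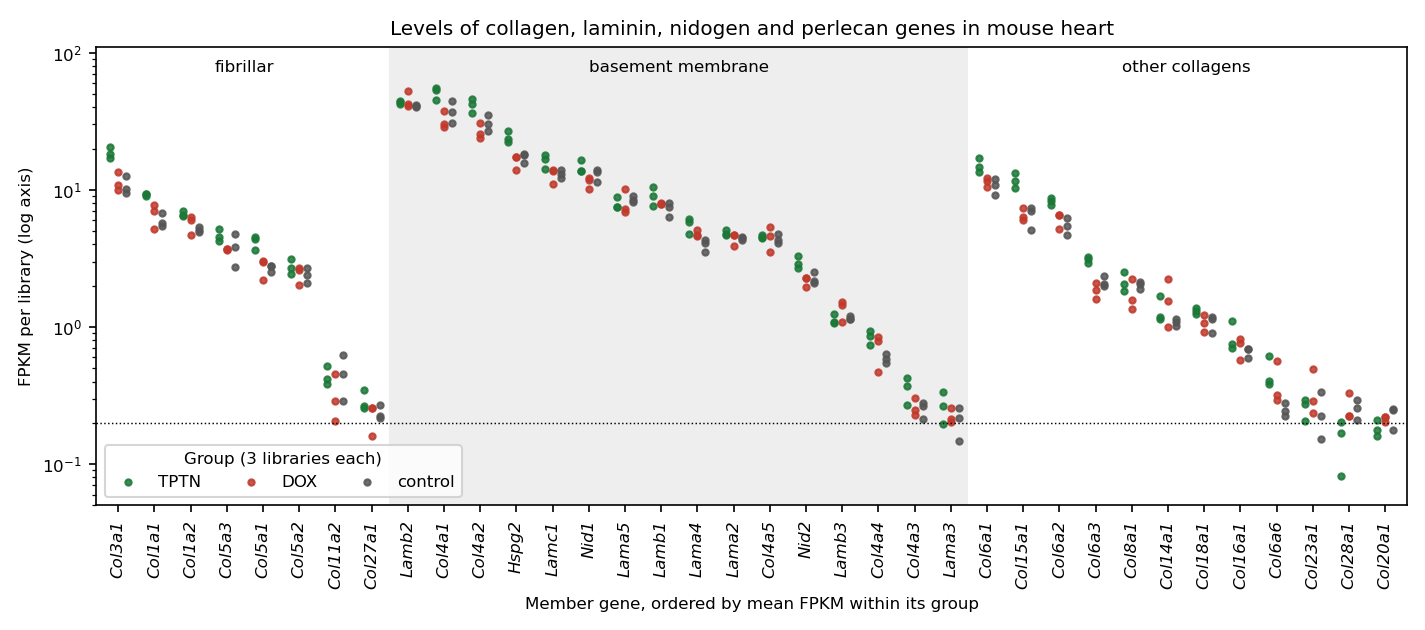
FPKM of all but 1 of the 37 members in each library on a log axis, ordered by mean FPKM within fibrillar, basement membrane and other collagens. Points are single libraries of the TPTN, DOX and control groups, and the dotted line is the limit of 0.2 FPKM. Basement membrane chains, led by Lamb2, Col4a1 and Col4a2, hold the highest levels, and Col3a1 leads the fibrillar chains.

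By mean level the basement membrane chains stood first. Lamb2, the laminin β2 chain of adult muscle and vessel basement membranes, averaged 43.2 FPKM over the 9 libraries. Col4a1 and Col4a2, the α1 and α2 chains that form the common type IV network, averaged 40.2 and 33.0 FPKM. The highest fibrillar chain was Col3a1 with 13.6 FPKM, above Col1a1 with 7.29 FPKM and Col1a2 with 5.83 FPKM. Summed over the 17 basement membrane chains, the 3 TPTN libraries held 209.3, 230.6 and 248.7 FPKM, the 3 DOX libraries 187.0, 186.5 and 165.1 FPKM, and the 3 control libraries 199.0, 168.9 and 189.2 FPKM. Summed over the 8 fibrillar chains, the TPTN libraries held 44.1, 48.4 and 47.8 FPKM, the DOX libraries 35.1, 36.4 and 28.2 FPKM and the control libraries 35.7, 29.0 and 29.7 FPKM. For both sums the TPTN libraries lay above all others, and the DOX and control libraries overlapped.

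Of the 37 members, 29 had a mean of at least 0.5 FPKM and were tested, together with all 12500 genes past that limit. The 8 not tested were Col11a2, Col27a1, Col4a3, Lama3, Col6a6, Col20a1, Col23a1 and Col28a1. None of these 8 was called when the limit was lowered to 0.2 FPKM. Tests were limma's moderated tests on log2(FPKM + 1), with a gene called at a Benjamini-Hochberg adjusted p under 0.05 over all tested genes. For genes of low FPKM the added 1 makes log2 changes smaller than those of the levels themselves.

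TPTN against DOX asked how the treated group differed from the doxorubicin model group. Of the 29 tested members 7 rose in the TPTN hearts, 6 collagen chains and perlecan, and 0 fell. Over all tested genes 0.792% were called higher and 2.46% lower. The 7 were the fibrillar chains Col3a1 and Col5a1, the basement membrane genes Col4a1, Col4a2 and Hspg2, and the other collagens Col15a1 and Col6a3. Not 1 of the 8 tested laminin chains was called. At an unadjusted limma p under 0.05, 13 members were higher and 0 lower, beside 2581 of all 12500 tested genes in either direction. In 17 of the 29 every TPTN library lay above every DOX library, and in 0 below, against 10.4% and 14.1% of all tested genes. The median log2 change was 0.22 over the tested members and -0.01 over all tested genes. These members also had long transcripts, with a median of 6046 bases against 3052 bases for the tested genes with a length, and long genes as a whole had small positive changes in this comparison.

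Among the fibrillar chains, Col3a1 (ENSMUSG00000026043, chr1:45311538-45349706), the single chain of type III collagen in compliant interstitial fibres, had 17.1, 20.4 and 18.1 FPKM in the TPTN libraries. It had 10.9, 13.5 and 10.01 FPKM in the DOX libraries and 12.7, 9.44 and 10.2 FPKM in the control libraries. All TPTN libraries lay above all others, while DOX and control overlapped. Its mean was 18.5 ± 1.66 FPKM in TPTN and 11.5 ± 1.83 FPKM in DOX hearts (SD, n = 3 each), a log2 change of 0.65 with a standard error of 0.12 and a limma adjusted p of 0.0282. Col5a1 (ENSMUSG00000026837, chr2:27886425-28039514), the type V chain that starts and limits the width of type I fibrils, had 3.67, 4.57 and 4.37 FPKM in TPTN, 2.95, 3.04 and 2.20 FPKM in DOX and 2.78, 2.81 and 2.51 FPKM in control libraries. TPTN again stood clear of both other groups. The log2 change of Col5a1 against DOX was 0.48 with a standard error of 0.10 and a limma adjusted p of 0.0352.

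The 2 chains of type I collagen, the stiff main fibre of scar and interstitium, did not pass the threshold. Col1a1, which gives 2 of the 3 chains of a type I trimer, had 9.04, 9.37 and 9.34 FPKM in TPTN, 7.75, 6.97 and 5.21 FPKM in DOX and 6.79, 5.75 and 5.43 FPKM in control libraries. Its TPTN libraries differed little among themselves and lay above every other library, with a log2 change against DOX of 0.44 and a limma adjusted p of 0.0724. Col1a2, its partner chain, had 6.51, 6.48 and 6.95 FPKM in TPTN, 6.33, 6.07 and 4.65 FPKM in DOX and 5.13, 5.37 and 4.94 FPKM in control libraries. TPTN libraries were highest there too, by less, with a log2 change of 0.20 against DOX and a limma adjusted p of 0.261. The ratio of Col1a1 to Col1a2 FPKM, given without a test, was 1.39, 1.45 and 1.34 in TPTN libraries, 1.22, 1.15 and 1.12 in DOX libraries and 1.32, 1.07 and 1.10 in control libraries. The ratio of Col3a1 to Col1a1 ran between 1.41 and 2.17 over the 9 libraries, and its values overlapped between groups.

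Col5a2, the second chain of the common type V trimer, had 2.45, 2.69 and 3.13 FPKM in TPTN, 2.71, 2.62 and 2.02 FPKM in DOX and 2.71, 2.40 and 2.10 FPKM in control libraries. The 3 groups overlapped, and its log2 change against DOX was 0.13 with a limma adjusted p of 0.542. Col5a3, another type V chain, had no overlap between TPTN and DOX libraries and a log2 change of 0.27 with a limma adjusted p of 0.292. As a class, 2 of the 6 tested fibrillar chains were called, all 6 had a log2 change above 0, and their median was 0.35.

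Among the basement membrane genes, Col4a1 had 45.1, 53.1 and 55.1 FPKM in the TPTN libraries, 28.7, 37.3 and 30.2 FPKM in the DOX libraries and 44.5, 30.7 and 37.0 FPKM in the control libraries. Every TPTN library lay above every DOX library, and replicate 1 of the control group lay close to the lowest TPTN library. Means were 51.1 ± 5.28 FPKM in TPTN and 32.1 ± 4.58 FPKM in DOX hearts (SD, n = 3 each), a log2 change of 0.66 with a standard error of 0.14 and a limma adjusted p of 0.0392. Col4a2 had 36.5, 42.2 and 45.8 FPKM in TPTN, 23.9, 30.8 and 25.5 FPKM in DOX and 35.4, 26.7 and 30.3 FPKM in control libraries. Its libraries stood in the same order within each group as those of Col4a1. The log2 change of Col4a2 was 0.62 with a standard error of 0.13 and a limma adjusted p of 0.0329. The ratio of Col4a1 to Col4a2 FPKM stayed between 1.15 and 1.26 in all 9 libraries.

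Both genes lie head to head, Col4a1 (ENSMUSG00000031502) at chr8:11198423-11312826 on the minus strand and Col4a2 (ENSMUSG00000031503) at chr8:11312805-11449287 on the plus strand of GRCm38 in GENCODE M21. Their annotated ends overlap by 22 bases, so reads there could be told apart only by strand. The start regions of both are shown because the genes share them: windows of 250 bases before to 50 bases after the RefSeq start (build GRCm38.p6) overlap over 78 bases, which are in capitals. The windows are chr8:11312777-11313076, minus strand, for Col4a1 and chr8:11312555-11312854, plus strand, for Col4a2, each read 5′ to 3′ on its own strand.
Col4a1: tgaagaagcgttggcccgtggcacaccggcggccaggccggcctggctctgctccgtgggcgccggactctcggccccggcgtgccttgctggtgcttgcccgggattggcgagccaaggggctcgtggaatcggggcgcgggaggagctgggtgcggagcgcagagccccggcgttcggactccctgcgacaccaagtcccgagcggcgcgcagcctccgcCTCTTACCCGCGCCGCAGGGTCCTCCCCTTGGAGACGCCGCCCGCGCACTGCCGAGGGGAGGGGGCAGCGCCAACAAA
Col4a2: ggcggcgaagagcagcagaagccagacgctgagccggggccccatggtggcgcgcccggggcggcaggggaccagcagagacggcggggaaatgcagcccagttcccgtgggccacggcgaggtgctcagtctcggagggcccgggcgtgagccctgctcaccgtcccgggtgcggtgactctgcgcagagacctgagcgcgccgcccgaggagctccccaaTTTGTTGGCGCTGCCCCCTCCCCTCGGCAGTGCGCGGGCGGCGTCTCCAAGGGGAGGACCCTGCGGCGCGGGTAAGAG
The RefSeq starts are 21 bases apart. Searched on both strands, CCAAT occurred 1 time in the Col4a1 window and 1 time in the Col4a2 window, and GGGCGG, the core of a GC box, occurred 1 and 3 times. TATAAA occurred 0 times in each. Of all 32851 RefSeq windows of this length, 37.4% held CCAAT, 35.7% GGGCGG and 13.6% TATAAA. The 28 members found in that table had 31 windows, of which 29.0% held CCAAT, 64.5% GGGCGG and 6.45% TATAAA.

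Hspg2 (ENSMUSG00000028763, chr4:137468769-137570630) codes for perlecan, a heparan sulfate proteoglycan that bridges laminin and type IV collagen networks. It had 22.4, 23.5 and 26.9 FPKM in TPTN, 17.2, 17.4 and 13.8 FPKM in DOX and 18.3, 15.7 and 18.0 FPKM in control libraries, so that TPTN lay above all other libraries. Means were 24.3 ± 2.33 FPKM in TPTN and 16.2 ± 2.01 FPKM in DOX hearts (SD, n = 3 each). The log2 change was 0.56 with a standard error of 0.10 and a limma adjusted p of 0.0239. The nidogens, short rods that tie laminin to type IV collagen, did not pass the threshold. Nid1 had 13.6, 13.6 and 16.4 FPKM in TPTN, 11.8, 12.2 and 10.2 FPKM in DOX and 13.4, 11.4 and 14.0 FPKM in control libraries. Nid2 had 2.88, 2.70 and 3.32 FPKM in TPTN, 2.29, 2.29 and 1.94 FPKM in DOX and 2.10, 2.17 and 2.52 FPKM in control libraries. For both, TPTN and DOX libraries did not overlap, with log2 changes of 0.33 and 0.32 and limma adjusted p-values of 0.1 and 0.0725.

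The start windows of Hspg2 and Col3a1 are shown because they differ in base composition and in the motifs they hold, with motif matches in capitals. Hspg2, at chr4:137468553-137468852 on the plus strand, was 70.3% G or C and held GGGCGG 5 times. Col3a1, at chr1:45311288-45311587 on the plus strand, was 37.7% G or C and held TATAAA 1 time, with 0 matches of the other motifs.
Hspg2: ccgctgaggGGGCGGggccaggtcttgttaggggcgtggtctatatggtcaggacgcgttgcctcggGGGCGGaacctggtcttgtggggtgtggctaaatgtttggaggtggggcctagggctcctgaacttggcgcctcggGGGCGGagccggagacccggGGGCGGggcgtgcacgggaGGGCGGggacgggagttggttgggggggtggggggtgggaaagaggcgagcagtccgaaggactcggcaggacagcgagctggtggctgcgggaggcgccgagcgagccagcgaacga
Col3a1: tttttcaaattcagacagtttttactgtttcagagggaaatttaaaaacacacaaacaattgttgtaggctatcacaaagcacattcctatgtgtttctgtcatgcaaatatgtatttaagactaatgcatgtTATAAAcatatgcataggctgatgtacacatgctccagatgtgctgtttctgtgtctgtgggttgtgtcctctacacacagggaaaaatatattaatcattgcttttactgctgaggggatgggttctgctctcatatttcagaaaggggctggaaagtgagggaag
The start windows of the other called members ranged in G and C content as well, with 75.0% for Col5a1, 74.0% for Col4a1, 73.7% for Col4a2, 56.3% for Col6a3 and 52.3% for Col15a1. A match describes these letters in the window, not a factor bound there.

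**Figure D2:**
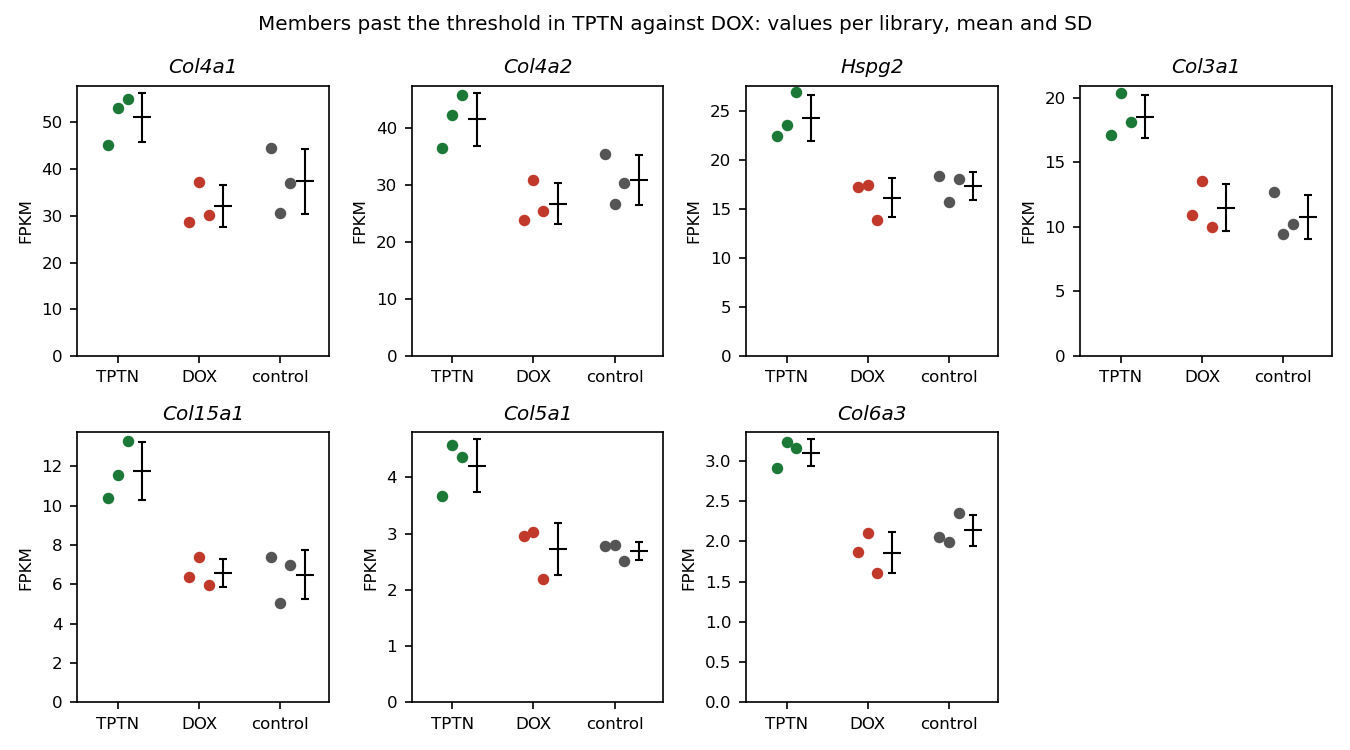
FPKM per library, with the group mean and SD beside the points, for the 7 members called in TPTN against DOX (n = 3 libraries per group, axes from 0). In each panel the 3 TPTN libraries lie above the 3 DOX libraries, and the DOX and control libraries overlap.

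The laminins are trimers of an α, a β and a γ chain that carry the contact between cell and basement membrane. Lama2, the α2 chain around heart and skeletal muscle cells, had 4.71, 4.76 and 5.13 FPKM in TPTN, 4.70, 4.65 and 3.88 FPKM in DOX and 4.46, 4.53 and 4.30 FPKM in control libraries. TPTN libraries were the highest by a small margin, and the log2 change of Lama2 against DOX was 0.12 with a limma adjusted p of 0.413. Lama4, the α4 chain of endothelial basement membranes, had 4.78, 5.83 and 6.13 FPKM in TPTN, 5.07, 4.72 and 4.64 FPKM in DOX and 4.28, 3.51 and 4.08 FPKM in control libraries. Its control libraries were lowest, and TPTN and DOX overlapped. Lama5, an α5 chain of vessel and epithelial basement membranes, had 7.45, 7.44 and 8.93 FPKM in TPTN, 10.2, 7.23 and 6.94 FPKM in DOX and 8.09, 8.40 and 8.95 FPKM in control libraries, and the groups overlapped.

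Lamb2 had 42.5, 44.0 and 44.6 FPKM in TPTN, 52.4, 40.6 and 42.6 FPKM in DOX and 40.6, 39.9 and 41.2 FPKM in control libraries. Replicate 1 of the DOX group was the highest, as it was for Lama5, and the log2 change of Lamb2 against DOX was -0.04 with a limma adjusted p of 0.846. Lamb1, the β1 chain, had 7.67, 9.02 and 10.5 FPKM in TPTN, 8.02, 7.89 and 7.83 FPKM in DOX and 7.52, 6.31 and 8.04 FPKM in control libraries. Lamc1, the γ1 chain shared by most laminins, had 14.1, 16.8 and 17.9 FPKM in TPTN, 14.0, 13.7 and 11.0 FPKM in DOX and 13.1, 12.2 and 13.9 FPKM in control libraries. Only for Lamc1 and Lama2 among the 8 tested laminins did TPTN lie clear of DOX, and Lamc1 had a log2 change of 0.31 and a limma adjusted p of 0.132. The median log2 change of the tested laminins was 0.05, beside 0.37 for the 4 tested type IV chains and 0.33 for nidogens and perlecan, values set side by side with no test of their difference. The ratio of Lamb1 to Lamb2 ran between 0.153 and 0.236, and that of Lama2 to Lama4 was 0.984, 0.817 and 0.837 in TPTN, 0.927, 0.986 and 0.836 in DOX and 1.04, 1.29 and 1.06 in control libraries, where all 3 exceeded 1.

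Among the other collagens, Col15a1 (ENSMUSG00000028339, chr4:47208161-47313167) had the largest log2 change of the tested members. It codes for type XV collagen, a multiplexin next to basement membranes of muscle and capillaries, whose loss in mice is known to damage heart and skeletal muscle. It had 10.4, 11.6 and 13.3 FPKM in TPTN, 6.35, 7.40 and 5.99 FPKM in DOX and 7.38, 5.06 and 7.01 FPKM in control libraries, with TPTN well above both other groups. The change against DOX was 0.75 on the log2 scale with a standard error of 0.13 and a limma adjusted p of 0.0238. Col18a1, the other multiplexin and the source of endostatin, had 1.25, 1.3 and 1.36 FPKM in TPTN, 1.07, 1.22 and 0.927 FPKM in DOX and 1.18, 0.906 and 1.14 FPKM in control libraries. TPTN libraries were the highest by little, and the log2 change of Col18a1 against DOX was 0.16 with a limma adjusted p of 0.314.

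Type VI collagen forms beaded microfibrils between basement membrane and interstitium. Col6a3 (ENSMUSG00000048126, chr1:90765923-90843971), its long α3 chain, had 2.91, 3.23 and 3.15 FPKM in TPTN, 1.86, 2.10 and 1.60 FPKM in DOX and 2.06, 2.00 and 2.36 FPKM in control libraries. It had the smallest limma adjusted p of the members, 0.0183, with a log2 change of 0.52 and a standard error of 0.08. Col6a1 had 13.6, 14.8 and 16.9 FPKM in TPTN, 12.3, 11.6 and 10.5 FPKM in DOX and 12.0, 9.13 and 10.8 FPKM in control libraries. Col6a2 had 7.74, 8.34 and 8.77 FPKM in TPTN, 6.61, 6.60 and 5.16 FPKM in DOX and 6.19, 4.69 and 5.45 FPKM in control libraries. TPTN libraries were above all others for each of the 3 genes, while Col6a1 and Col6a2 did not pass the threshold, with limma adjusted p-values of 0.0902 and 0.0774. The ratio of Col6a1 to Col6a2, whose genes are 85161 bases apart on chromosome 10, ran between 1.75 and 2.03.

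The remaining collagens overlapped between TPTN and DOX libraries or were too low to test. Col8a1, a short-chain network collagen of vessels, had 2.06, 2.53 and 1.84 FPKM in TPTN, 1.36, 2.22 and 1.56 FPKM in DOX and 1.9, 2.07 and 2.12 FPKM in control libraries. Col14a1, which decorates fibrils of types I and III, had 1.19, 1.14 and 1.68 FPKM in TPTN, 2.24, 1.54 and 0.999 FPKM in DOX and 1.01, 1.14 and 1.10 FPKM in control libraries. Its highest library was the atrial-rich replicate 1 of the DOX group, and without that library its log2 change in TPTN against DOX was 0.04, against -0.13 with it, with limma adjusted p-values of 0.868 and 0.678. Col23a1, a transmembrane collagen, lay between 0.154 and 0.491 FPKM, and Col28a1 between 0.0822 and 0.333 FPKM. Col4a5, Col4a4, Lamb3 and Col16a1, with means over the libraries of 4.49, 0.709, 1.22 and 0.743 FPKM, had log2 changes against DOX between -0.13 and 0.12, none of them called.

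**Figure D3:**
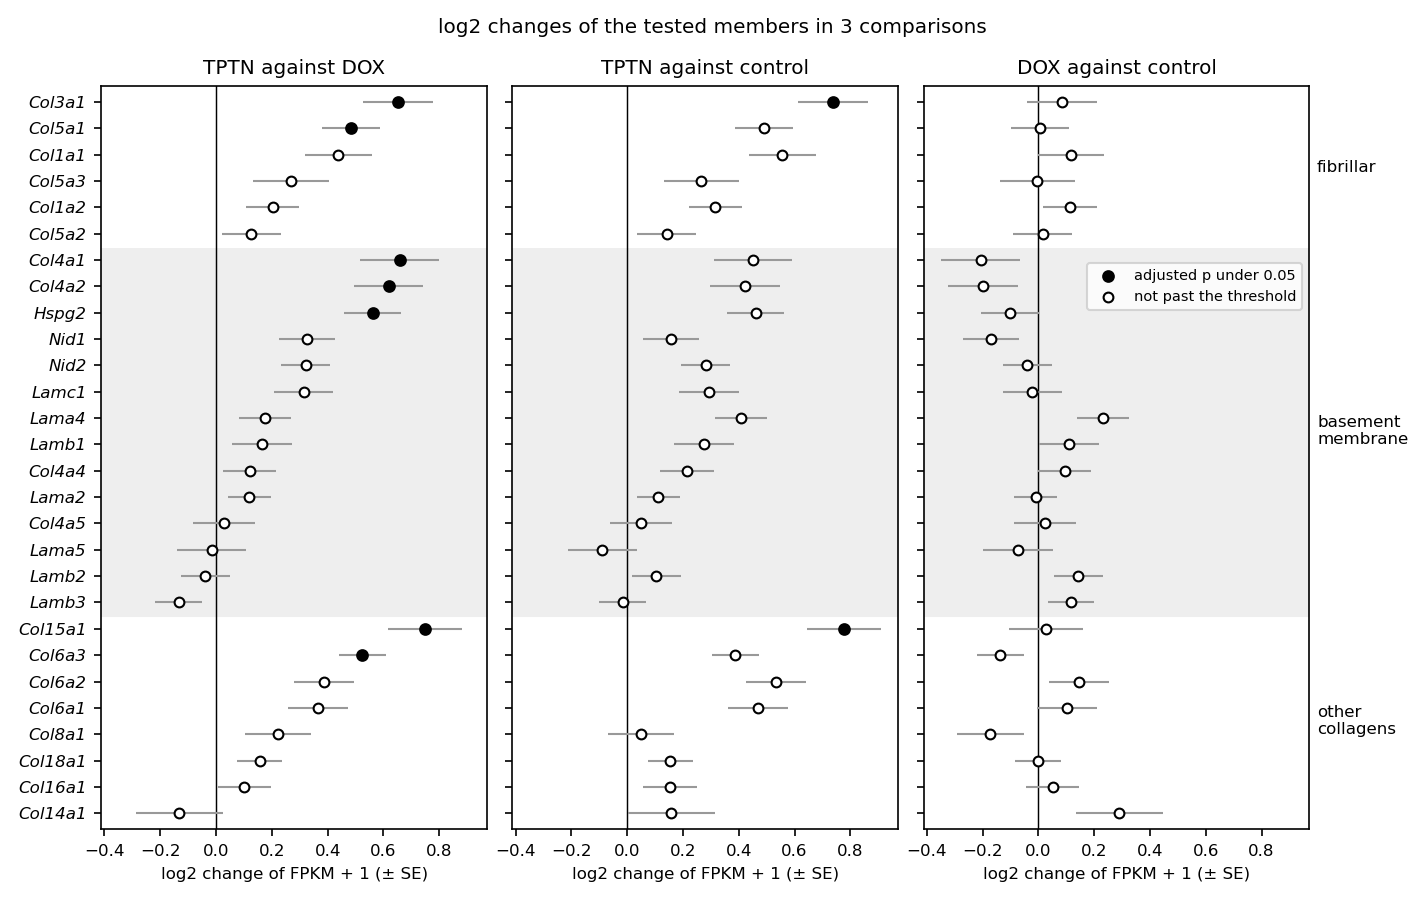
log2 change of FPKM + 1, with its standard error, for all but 1 of the 29 tested members in TPTN against DOX, TPTN against control and DOX against control. Filled points have a limma adjusted p under 0.05: 7 in the first comparison, 2 in the next and 0 in DOX against control.

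The number of calls depended on single libraries. Without replicate 1 of the DOX group, 5 members were called in TPTN against DOX, namely Col15a1, Col1a1, Col5a1, Col6a3 and Hspg2, while Col3a1, Col4a2 and Col4a1 had limma adjusted p-values of 0.0532, 0.0612 and 0.0764. Over all tested genes 162 were then called higher, against 99 with all libraries. Without replicate 1, 2 or 3 of the TPTN group, or replicate 3 of the DOX group, the count of members was 0 in each case, and calls over all genes were fewer too, with 19, 14, 9 and 12 genes higher. All 7 log2 changes stayed above 0 in the 22 other settings tried, with those of Col15a1 between 0.66 and 0.87 and its limma adjusted p between 0.0101 and 0.156.

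TPTN against control set the treated hearts against normal ones. Here 2 of 29 members rose and 0 fell, where 0.336% of all tested genes were called higher and 0.384% lower. The 2 were Col15a1 and Col3a1, and both comparisons use the same TPTN libraries. Col15a1 averaged 11.8 ± 1.48 FPKM in TPTN and 6.48 ± 1.25 FPKM in control hearts (SD, n = 3 each), a log2 change of 0.78 with a standard error of 0.13 and a limma adjusted p of 0.0285. Col3a1 averaged 18.5 ± 1.66 FPKM in TPTN and 10.8 ± 1.70 FPKM in control hearts (SD, n = 3 each), a log2 change of 0.74 with a standard error of 0.12 and a limma adjusted p of 0.0285. At an unadjusted limma p under 0.05, 16 members were higher and 0 lower, beside 1642 of all 12500 tested genes in either direction. In 20 members every TPTN library lay above every control library, and in 0 below, against 15.2% and 6.03% of all tested genes.

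Among members outside the threshold in TPTN against control, Col1a1, Col6a2 and Col5a1 had log2 changes of 0.56, 0.53 and 0.49, with limma adjusted p-values of 0.0667, 0.0549 and 0.0603. Hspg2 had a log2 change of 0.46 with a limma adjusted p of 0.0734. Col4a1 and Col4a2 had 0.45 and 0.42 with limma adjusted p-values of 0.208 and 0.179, and their control libraries spread over 30.7 to 44.5 and 26.7 to 35.4 FPKM. Lama4 was the laminin with the largest change, 0.41 with a limma adjusted p of 0.083, and its TPTN libraries lay above all control libraries. Median log2 changes were 0.40 for the tested fibrillar chains and 0.22 for the tested basement membrane chains, beside 0.04 for all tested genes. Without replicate 1, 2 or 3 of the TPTN group, or replicate 2 or 3 of the control group, 0 members were called, and without replicate 3 of the DOX group or replicate 1 of the control group 5 were. With all libraries 42 of all tested genes were called higher. Their number was 20, 9 and 4 in the first 3 cases and 13 without replicate 2 or replicate 3 of the control group. It was 34 without replicate 3 of the DOX group and 85 without replicate 1 of the control group.

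DOX against control asked whether the doxorubicin model changed these messages. Of the 29 tested members 0 rose and 0 fell by limma's adjusted p, while 2.23% of all tested genes were called higher and 0.4% lower. At an unadjusted limma p under 0.05, 1 member was higher and 0 lower, beside 2256 of all 12500 tested genes in either direction. That member was Lama4, which was also the only 1 of the 29 whose DOX libraries all lay above the control libraries, with a mean of 4.81 ± 0.226 FPKM in DOX and 3.95 ± 0.398 FPKM in control hearts (SD, n = 3 each) and a limma adjusted p of 0.224. Over all tested genes the libraries lay clear of each other in 17.7% with DOX higher and in 5.1% with DOX lower. Col1a1 averaged 6.64 ± 1.3 FPKM in DOX and 5.99 ± 0.714 FPKM in control hearts, and Col3a1 11.5 ± 1.83 and 10.8 ± 1.70 FPKM (SD, n = 3 each), differences within the spread. Col4a1 and Col4a2 had log2 changes of -0.21 and -0.20, with standard errors of 0.14 and 0.13 and limma adjusted p-values of 0.503 and 0.459. The median log2 change was 0.05 for fibrillar and -0.01 for basement membrane chains. With mitochondrial genes and their copies left out of the scaling it was -0.08 and -0.14, and median-ratio and quantile scaling also turned the fibrillar median below 0. The count stayed at 0 in each setting tried.

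**Figure D4:**
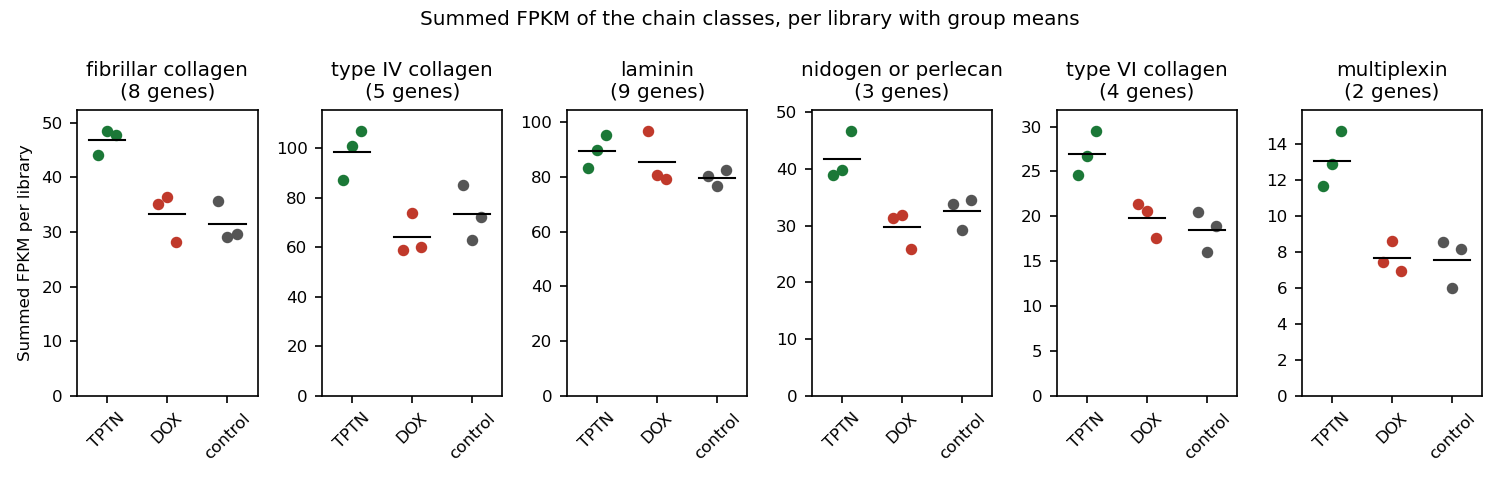
FPKM summed over the members of 6 chain classes in each library, with a line at the group mean (n = 3 libraries per group, axes from 0). TPTN libraries stand above all DOX and control libraries for fibrillar, type IV, type VI and multiplexin collagens and for nidogens and perlecan, while the 3 groups overlap for laminins.

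The class sums give the same levels per class. For the 5 type IV chains they were 87.3, 101.0 and 106.8 FPKM in TPTN, 59.1, 73.8 and 60.0 FPKM in DOX and 85.0, 62.9 and 72.3 FPKM in control libraries. For the 9 laminins they were 83.1, 89.8 and 95.4 FPKM in TPTN, 96.6, 80.8 and 79.2 FPKM in DOX and 80.2, 76.7 and 82.4 FPKM in control libraries. The type IV sum of the lowest TPTN library thus lay just above the highest control library, whereas the laminin sum was highest in replicate 1 of the DOX group.

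Genes that act on these chains were mostly outside the threshold. In the list of collagen folding and modifying enzymes, 17 of 19 genes were tested, with a median log2 change of 0.10 in TPTN against DOX, and 0 were called in TPTN against DOX or TPTN against control. Serpinh1, the collagen chaperone HSP47, had 77.0, 93.9 and 78.5 FPKM in TPTN, 55.4, 62.9 and 53.9 FPKM in DOX and 83.6, 40.9 and 53.3 FPKM in control libraries, and its log2 change of 0.52 against DOX had a limma adjusted p of 0.246. Nearest to a call in TPTN against DOX was P4ha2 with a log2 change of 0.37 (limma adjusted p = 0.0506). The largest changes below 0 were -0.39 for Fkbp10, -0.36 for P3h4 and -0.21 for Ppib (limma adjusted p = 0.185, 0.0961 and 0.253). Serpinh1 and these genes were named after their values were seen. P4hb, a subunit of prolyl 4-hydroxylase, rose in DOX against control by 0.29 on the log2 scale (limma adjusted p = 0.0449), the only call of that list.

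Of the procollagen processing and cross-linking list, 10 of 14 genes were tested, with a median of 0.10 in TPTN against DOX. Loxl1 and Loxl2, lysyl oxidases that cross-link elastin and collagen, rose in TPTN against DOX and 0 genes of the list fell. Loxl1 had 6.83, 7.37 and 7.42 FPKM in TPTN, 6.09, 4.92 and 5.21 FPKM in DOX and 6.95, 7.31 and 7.09 FPKM in control libraries, with DOX below both other groups. Its log2 change was 0.36 in TPTN against DOX (limma adjusted p = 0.0365) and -0.35 in DOX against control (limma adjusted p = 0.047), comparisons that share the DOX libraries. Loxl2 had 2.55, 3.27 and 2.81 FPKM in TPTN, 1.82, 1.72 and 1.73 FPKM in DOX and 2.54, 1.60 and 1.70 FPKM in control libraries, a log2 change against DOX of 0.49 (limma adjusted p = 0.0495). Tgm2, a transglutaminase that cross-links matrix proteins, fell in TPTN against control by 0.42 on the log2 scale (limma adjusted p = 0.0161), with 34.5, 34.8 and 37.2 FPKM in TPTN and 48.7, 48.4 and 45.9 FPKM in control libraries.

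Of the interstitial partners of collagen, 15 of 16 genes were tested and 1 was called in TPTN against DOX, with a median of 0.04. Fbn1, the microfibril protein fibrillin-1, had 4.80, 5.73 and 6.42 FPKM in TPTN, 3.8, 4.13 and 3.30 FPKM in DOX and 4.24, 3.66 and 4.27 FPKM in control libraries, a log2 change of 0.48 (limma adjusted p = 0.0354). Without a call, every TPTN library lay below every DOX library for Dcn, Fbln5 and Thbs2, and above it for Eln, Postn and Vcan. Dcn, the most abundant gene of the list, had a log2 change of -0.40 (limma adjusted p = 0.0954). Fbln5 and Thbs2 had -0.30 and -0.28, and Eln, Postn and Vcan had 0.43, 0.40 and 0.25. The uncalled genes of this list were named after their values were seen. Of the other basement membrane proteins, 8 of 12 were tested with a median of 0.07 in TPTN against DOX, where Papln, papilin, rose. It had 2.02, 2.16 and 2.40 FPKM in TPTN, 1.09, 1.37 and 1.07 FPKM in DOX and 1.29, 0.913 and 1.49 FPKM in control libraries, a log2 change of 0.56 (limma adjusted p = 0.0254). Ntn4, a netrin that binds laminin, was higher in DOX against control by 0.32 (limma adjusted p = 0.0328) and in TPTN against control by 0.40 (limma adjusted p = 0.021) on the log2 scale. Of the collagen and laminin receptors, 9 of 15 were tested with a median of 0.07 in TPTN against DOX, and the only call was Bcam, a receptor for the laminin α5 chain, which rose in DOX against control by 0.44 on the log2 scale (limma adjusted p = 0.0204).

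Markers of the cells that make these chains were read beside them, by whole lists. The summed level of the 9 fibroblast markers in the table was 300.3 to 346.2 FPKM in TPTN, 341.9 to 544.2 FPKM in DOX and 312.8 to 357.5 FPKM in control libraries, with the highest value in replicate 1 of the DOX group. Most of this sum was Gsn, with 228.7 to 262.1 FPKM in TPTN, 267.0 to 439.1 FPKM in DOX and 241.9 to 270.9 FPKM in control libraries. Of the 9 markers, 0 were higher and Dpep1 was lower in TPTN against DOX, with a log2 change of -0.71 (limma adjusted p = 0.0254), and Pdgfra, the defining receptor of resting fibroblasts, had a log2 change of -0.09 (limma adjusted p = 0.707). TPTN and DOX libraries also lay apart, without a call, for Gsn and Cd248. Their log2 changes were -0.39 and 0.45 (limma adjusted p = 0.226 and 0.118). Both were named after their values were seen. Of the 9 markers of activated fibroblasts 6 were tested. Meox1, a transcription factor of activated fibroblasts, rose in TPTN against DOX by 0.61 (limma adjusted p = 0.0453), with 7.39, 8.69 and 6.95 FPKM in TPTN, 4.40, 5.06 and 4.52 FPKM in DOX and 4.65, 3.17 and 5.30 FPKM in control libraries. Postn, periostin, had a log2 change of 0.40 (limma adjusted p = 0.0798), Cilp of 0.20 and Acta2 of 0.15. Thbs4, a thrombospondin, had a log2 change of -0.51 (limma adjusted p = 0.0612), with every TPTN library below every DOX library, and Comp one of -0.63 (limma adjusted p = 0.409), with its highest value, 3.64 FPKM, in replicate 1 of the DOX group. Cilp, Acta2, Thbs4 and Comp were named after their values were seen. The summed activated list was 62.6 to 85.4 FPKM in TPTN, 51.9 to 74.0 FPKM in DOX and 36.5 to 77.9 FPKM in control libraries, so the groups overlapped. Most of that sum was Acta2, with 47.66 to 67.34 FPKM in TPTN, 34.78 to 59.56 FPKM in DOX and 25.11 to 65.15 FPKM in control libraries.

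The 12 endothelial markers summed to 162.2 to 186.3 FPKM in TPTN, 168.5 to 179.3 FPKM in DOX and 164.2 to 177.5 FPKM in control libraries. Kdr, the receptor VEGFR2, was the only 1 of the 12 called, in TPTN against DOX by 0.48 (limma adjusted p = 0.0304) and in TPTN against control by 0.66 (limma adjusted p = 0.0161) on the log2 scale, while Pecam1 had log2 changes of -0.02 and 0.02. The median log2 change of the 12 was -0.03 in TPTN against DOX and 0.02 in TPTN against control. For Flt1 and Esam, named after their values were seen, every TPTN library lay below every control library without a call. Their log2 changes were -0.15 and -0.21. The 9 pericyte markers summed to 152.8 to 176.0 FPKM in TPTN, 134.4 to 161.3 FPKM in DOX and 143.9 to 160.3 FPKM in control libraries, with Notch3 called higher in TPTN against DOX by 0.37 (limma adjusted p = 0.0351) and Pdgfrb at 0.06. The 7 smooth muscle markers, at 85.6 to 113.1 FPKM in TPTN, 80.9 to 100.4 FPKM in DOX and 54.8 to 98.8 FPKM in control libraries, had 0 calls. Acta2 and Smtn made up most of this sum. Tagln and Myh11, named after their values were seen, were higher in every DOX library than in any TPTN or control library. Their log2 changes in DOX against control were 0.97 and 0.44 (limma adjusted p = 0.0855 and 0.0532). In TPTN against DOX they were -0.72 and -0.23 (limma adjusted p = 0.144 and 0.245), while Acta2, Smtn and Mylk had changes above 0. The 8 macrophage markers, at 131.4 to 152.4 FPKM in TPTN, 130.1 to 165.9 FPKM in DOX and 137.3 to 177.6 FPKM in control libraries, had 0 calls. The 6 atrial markers summed to 53.5 to 121.4 FPKM in TPTN, 196.7 to 2554 FPKM in DOX and 52.1 to 148.5 FPKM in control libraries, with 0 calls. Outside replicate 1 of the DOX group, nearly all of this sum was the atrial marker Nppa. It held 288.0 of 289.9 FPKM in replicate 2 and 195.2 of 196.7 FPKM in replicate 3 of the DOX group. The list's other markers had at most 0.889 FPKM each outside replicate 1 of the DOX group. The 9 general heart muscle markers summed to 13930 to 14450 FPKM in TPTN, 13760 to 15620 FPKM in DOX and 12430 to 13710 FPKM in control libraries. Of these Myl2 and Tnni3 rose in DOX against control by 0.38 and 0.28 on the log2 scale and Ryr2 fell by 0.56, with limma adjusted p-values of 0.0339, 0.0412 and 0.0327. Mesothelial, Schwann cell and adipocyte lists summed to at most 2.67, 3.25 and 1.85 FPKM in any library. Each was highest in replicate 1 of the DOX group, where Msln and Adipoq, listed at 0 in some libraries, had 0.355 and 0.17 FPKM. The Schwann cell sums were 3.25, 2.75 and 2.28 FPKM in DOX, above the 1.68 to 2.25 FPKM in TPTN and 1.14 to 2.26 FPKM in control libraries. Only 1 of 6 mesothelial, 1 of 6 Schwann cell and 0 of 6 adipocyte markers were tested. None was called, which says little on lists with so few tested genes. The part of these cell types in the changes of the members was not tested.

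**Figure D5:**
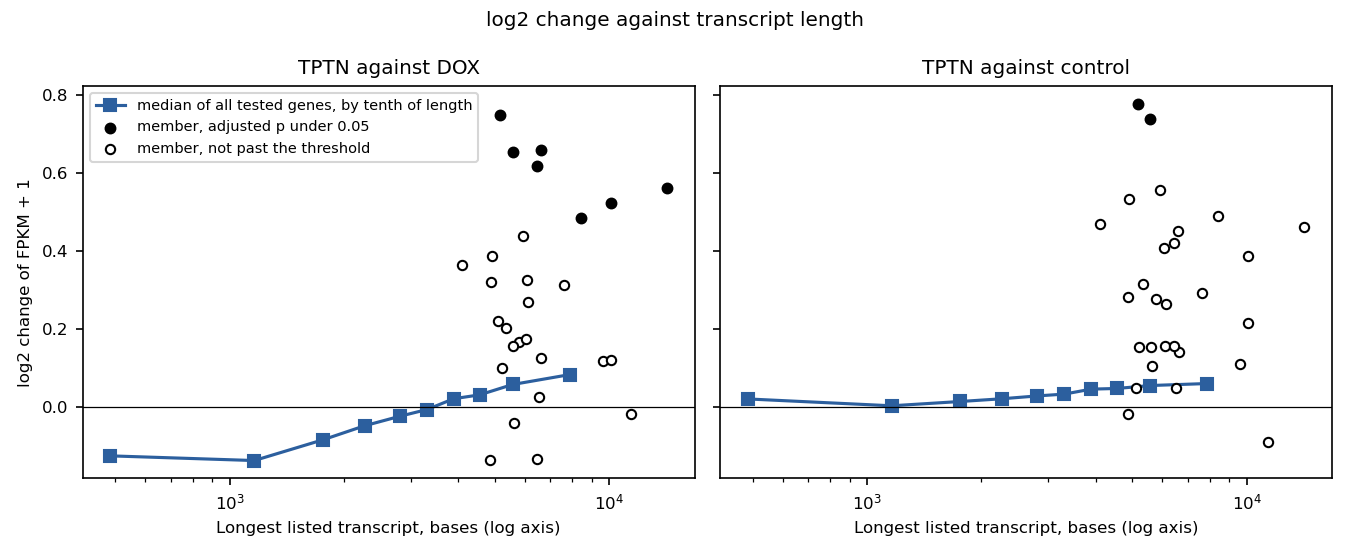
log2 change of FPKM + 1 against the length of the longest listed transcript in bases, on a log axis, for all but 1 of the 29 tested members (points) and as medians of 10 equal bins of all tested genes by length (line), in TPTN against DOX and TPTN against control. In TPTN against DOX the medians run between -0.14 and 0.08, and the 7 called members lie between 0.48 and 0.75.

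Transcript length moved with the comparison of TPTN and DOX. The median log2 change of all genes was -0.12 in the shortest of 10 length bins and 0.08 in the longest, and it was 0.06 in the 3902 other genes in the length range of the tested members. The tested members also had a higher G and C content, with a median of 55.2% against 50.0%. After removal of a trend on length and G and C content, a setting chosen after seeing the data, the log2 changes of the 7 called members were 0.36 to 0.68 and 0 were called. Col15a1 and Col6a3 came nearest, with 0.68 and 0.39 and limma adjusted p-values of 0.0537 and 0.0652. In TPTN against control the same removal left 1 call, Col15a1, with a log2 change of 0.73 and a limma adjusted p of 0.0464. The part of length or base composition in the members' changes was not tested further.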

How the data were processed

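Polyadenylated RNA of mouse hearts was sequenced in 9 libraries, 3 per group, as strand-marked paired reads, per the labels' protocols. The authors' deposited table gives FPKM per gene and library; counts were not used here. Per the submitters' processing notes, cutadapt 1.9, HISAT2 2.0.4, StringTie 1.3.4d, DESeq2, edgeR and GRCm38 were used, with no role given for each. The table's deposited p-value and q-value columns do not name the groups compared and were not used. Of low FPKM values in 15203 genes with 1 listed transcript, only 10.9 to 15.0% were whole multiples of a common step within 0.05, little more than that tolerance gives by chance, so read counts and depth were not recovered and no count test was made.

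Values were tested as log2(FPKM + 1), with a pseudocount of 1, in the 12500 genes with a mean of at least 0.5 FPKM. The model, fitted with limma 3.58.1 in R 4.3.3 (package data.table, version 1.17.8), held a mean for each of the 3 groups, with a mean-variance trend and robust moderation on 6 residual degrees of freedom, and p-values were adjusted over all genes by Benjamini and Hochberg. The procedure was tested on simulated data. Python 3.11.15, pandas 2.3.3, numpy 2.4.6 and matplotlib 3.10.9 were used for tables and plots. Of the identifiers, 29154 were found in GENCODE M21 (GRCm38), the source of positions and transcript lengths; start windows are RefSeq's. Ids were matched exactly, and 0.017% or fewer of the genes had identical nonzero values in any pair of libraries.

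Members, chain classes, the 5 lists of partner genes and the 11 lists of cell markers were chosen with earlier results of these data known. A member that was not called enters the counts, medians and sums but is not reported here by name. Values per library are given for every called member, for 22 fixed members and for the highest member of each class; of other genes, up to 4 called per list and the first of each marker list are named. Alternatives were each library left out, the replicate number as a block, a model of just the compared pair of groups, moderation that is not robust, a pseudocount of 0.1, other or no limits on low values, 3 other scalings, pairs of libraries left out and a correction for length and G and C content.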

Additional observations from a re-analysis of the deposited data

How the results depend on the processing

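The count of members higher in TPTN against DOX, 7 as reported, was 0 to 7 when single libraries were left out, 0 with no filter on low values, 13 with scaling that leaves out mitochondrial genes and their copies, 0 without replicate 3 of the control group together with replicate 1 of the TPTN group, and, in settings chosen after seeing the data, 0 without replicate 1 of DOX together with replicate 1 of TPTN and 0 with the length and GC trend removed. The count higher in TPTN against control, 2 as reported, was 0 to 5 with single libraries left out, 0 with no filter, 4 at a minimum mean of 1 FPKM, 0 and 0 without the same pairs of libraries and 1 with the length and GC trend removed. Calls over all tested genes moved too. In TPTN against DOX 99 were higher as reported and 542 with the scaling without mitochondrial genes and copies. The number was 0 with no filter, 1 and 0 without these pairs of libraries, and 29 with the trend removed. In TPTN against control 42 were higher as reported, 1 with no filter and 59 at a minimum mean of 1 FPKM. It was 0 and 22 without these pairs and 42 with the trend removed. Leaving out libraries leaves fewer residual degrees of freedom, and adding genes means more tests. Counts over all genes also rose without some libraries. In TPTN against DOX 162 genes were higher without replicate 1 of DOX, 107 without replicate 1 of control and 123 without replicate 2 of control. The cause of the shifts in either direction was not tested. With the replicate number as a replicate block the member counts were 1 (Col6a3, log2 change 0.52, limma adjusted p = 0.0423) and 0. Over all tested genes 37 and 24 were then called higher. Deviations of libraries with the same number correlated at -0.26 to 0.02 across genes. With 3 libraries per group this cannot tell whether the numbers mark libraries handled together. Counts of members lower, and both counts in DOX against control, were 0 in each of the 22 settings. No called member changed sign. Over all tested members and settings in TPTN against DOX, 534 values kept their sign and side of the threshold, 72 lost a call, 8 gained one and 21 that were not called changed sign. The 3 libraries per group and values without counts limit the precision, mostly for members near 0.5 FPKM.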
